A study of Mus musculus with 18 samples.

Results

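Fatty acid oxidation and its control by PPAR receptors were followed in the mouse heart through 10 genes, Ppara, Ppargc1a, Cpt1b, Acadm, Acadl, Hadha, Fabp3, Pdk4, Ucp3 and Angptl4, of 34989 genes in the deposited data. They were picked by name as genes of the pathway, with earlier results of these data known, and all 10 of 10 passed the filter on low counts in every comparison. Donor hearts of mice, labelled as C57B/L6 and 12 weeks old, were kept in cold HTK, a preservation solution, for 0, 4 or 8 h of cold ischemic storage (CIS) and were then reperfused outside the body with Krebs buffer for 1 h. RNA-seq libraries were made from the left ventricle (LV) and the right ventricle (RV), with 3 libraries in each of 6 groups. The 0 h group was reperfused too, so each comparison addressed the length of storage before reperfusion. The authors' methods gave a younger age and both sexes, and the labels did not give the sex of single animals.

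Totals of estimated counts per library are given in the order of library numbers 1, 2 and 3. They were 46236771, 27150356 and 29889176 in LV at 0 h, 32816675, 30106238 and 28336115 at 4 h and 31848856, 30966368 and 22552581 at 8 h. In RV the totals were 31309284, 26792741 and 29943848 at 0 h, 43417220, 25951817 and 30018964 at 4 h and 32446175, 24832857 and 28792181 at 8 h. Levels of a gene are given as CPM, its counts scaled to a common library size with TMM factors, in the order of library numbers 1, 2 and 3.

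The adult heart draws most of its energy from long-chain fatty acids. FABP3 carries them through the cytosol, CPT1B joins them to carnitine for entry into mitochondria, and the enzymes encoded by Acadm, Acadl and Hadha shorten them there by beta oxidation. The receptor PPARα, encoded by Ppara, is activated by fatty acids and, with the coactivator PGC-1α, encoded by Ppargc1a, drives genes of fat use, among them Pdk4, Ucp3 and Angptl4.

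Some libraries stood apart. RV 8 h library 3 had the lowest level of Cpt1b, Acadm, Acadl, Hadha and Fabp3 among the 18 libraries. Its summed level of 8 cardiomyocyte markers was 28841 CPM, against 49794 and 57329 CPM in RV 8 h libraries 1 and 2. LV 8 h library 3, with the same number, had the lowest sum in LV (42645 CPM). At 0 h, library 3 of both ventricles had the highest Pdk4, Ucp3 and Angptl4 of its group. The Y-linked gene Ddx3y was at 1.47 to 2.44 CPM in library 2 at 0 h and library 3 at 4 and 8 h of both ventricles, and at 62.1 to 115 CPM in the other libraries. Genes of the mitochondrial genome held 32.0% to 34.4% of the counts at 8 h and 22.7% to 32.6% at 0 and 4 h. In a fit without these genes, Hadha (edgeR adjusted p = 0.0839) and Angptl4 (edgeR adjusted p = 0.0914) in LV at 8 h stayed called, as defined below. So did Pdk4 in RV at 4 h (edgeR adjusted p = 0.0741) and Angptl4 in RV at 8 h (edgeR adjusted p = 0.0953). Any other part of this share in the results was not tested.

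Markers of cardiomyocytes were abundant in every library. Their summed level in LV was 64089 ± 6399 CPM at 0 h, 62635 ± 3726 CPM at 4 h and 48342 ± 5104 CPM at 8 h (mean ± SD, n = 3), with Myh6 the most abundant by CPM. In RV the sum was 63682 ± 4783 CPM at 0 h, 62346 ± 1748 CPM at 4 h and 45321 ± 14761 CPM at 8 h. Of the 8 markers, Myh6 was called lower in LV at 8 h (−0.63 on the log2 scale, SE 0.14, edgeR adjusted p = 0.0410) and 0 were called by edgeR in RV at 8 h, where 0 had an unadjusted p under 0.05 and DESeq2 called 0. The Myh6 call was lost without LV 0 h library 1, without LV 0 h library 2 and without LV 8 h library 3. Myl2, the most abundant marker per length, had a log2 change of 0.10 in LV and −0.13 in RV at 8 h. In whole ventricle, fewer cardiomyocytes and less RNA per cardiomyocyte cannot be told apart.

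Compared per length, as TPM (mean over 18 libraries, then the lowest and the highest), Fabp3 was the most abundant of the 10 genes (3946 TPM, 2165 to 4907). Acadm (568 TPM, 102 to 966), Hadha (503 TPM, 139 to 748) and Acadl (498 TPM, 160.3 to 669.9) followed, with ranges that overlapped. Pdk4 (309 TPM, 107 to 625) and Cpt1b (251 TPM, 122 to 343) came next and overlapped as well. Ucp3 (29.9 TPM, 12.3 to 61.3), Ppargc1a (21.8 TPM, 7.38 to 34.4), Angptl4 (14.5 TPM, 1.87 to 49.6) and Ppara (8.22 TPM, 2.55 to 16.9) were the least abundant, each overlapping its neighbor in this order. The genes of the carrier and of the oxidation enzymes thus had far higher RNA levels than those of the receptor and its coactivator.

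On GRCm38, Ppara lies at chr15:85734983-85802819, Ppargc1a at chr5:51454250-51567726, Cpt1b at chr15:89416405-89425863, Acadm at chr3:153922357-153944632 and Acadl at chr1:66830839-66863277. Hadha lies at chr5:30118304-30155162, Fabp3 at chr4:130308595-130315463, Pdk4 at chr6:5483351-5496309, Ucp3 at chr7:100472990-100486432 and Angptl4 at chr17:33773750-33781830. For Angptl4, a median of 84.2% of the counts over the libraries was assigned to a transcript annotated for nonsense-mediated decay and 14.2% to the coding transcript. For Hadha, 61.2% was assigned to a transcript annotated as processed, without a coding sequence, and 38.1% to a coding transcript. These splits came from Kallisto with its transcript annotation, and no other annotation was tested. In each of the other 8 genes, 1 coding transcript held a median of at least 91.0% of the counts.

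A gene was called when its Benjamini-Hochberg adjusted p in edgeR was under 0.1 and its fold change over 1.5. In LV at 4 h against 0 h, edgeR called 0 of the 10 genes, beside 2.4% of all tested genes called higher and 0.398% called lower. Here 1 of the 10, Pdk4, had an unadjusted p under 0.05, beside 15.6% of all genes, and DESeq2 called 1. In LV at 8 h, Angptl4 was called higher, beside 5.46% of all genes, and Hadha was called lower, beside 1.26%. In RV at 4 h, Pdk4 was called higher, beside 6.17% of all genes, and none of the 10 was called lower by edgeR or DESeq2, beside 3.91%. In RV at 8 h, Angptl4 was called higher, beside 13% of all genes, and none was called lower by edgeR or DESeq2, beside 5.26%. In LV at 8 h, the unadjusted p was under 0.05 for 5 of the 10 (Cpt1b, Acadm, Acadl, Hadha and Angptl4), beside 23.3% of all genes. In RV it was under 0.05 for 1 at 4 h (Pdk4), beside 21.5%, and for 2 at 8 h (Cpt1b and Angptl4), beside 30.8%. The same shares apply to the counts at an unadjusted p under 0.05 given for other gene lists in these comparisons. With upper-quartile factors, the share of all called genes that were higher went from 61.2% to 41.1% in RV at 4 h and from 71.1% to 52.6% at 8 h. With 10 genes, 0 or 1 calls in a direction are near the background. The comparisons of 4 and 8 h within a ventricle share their 0 h libraries, and their values are given side by side.

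**Figure D1:**
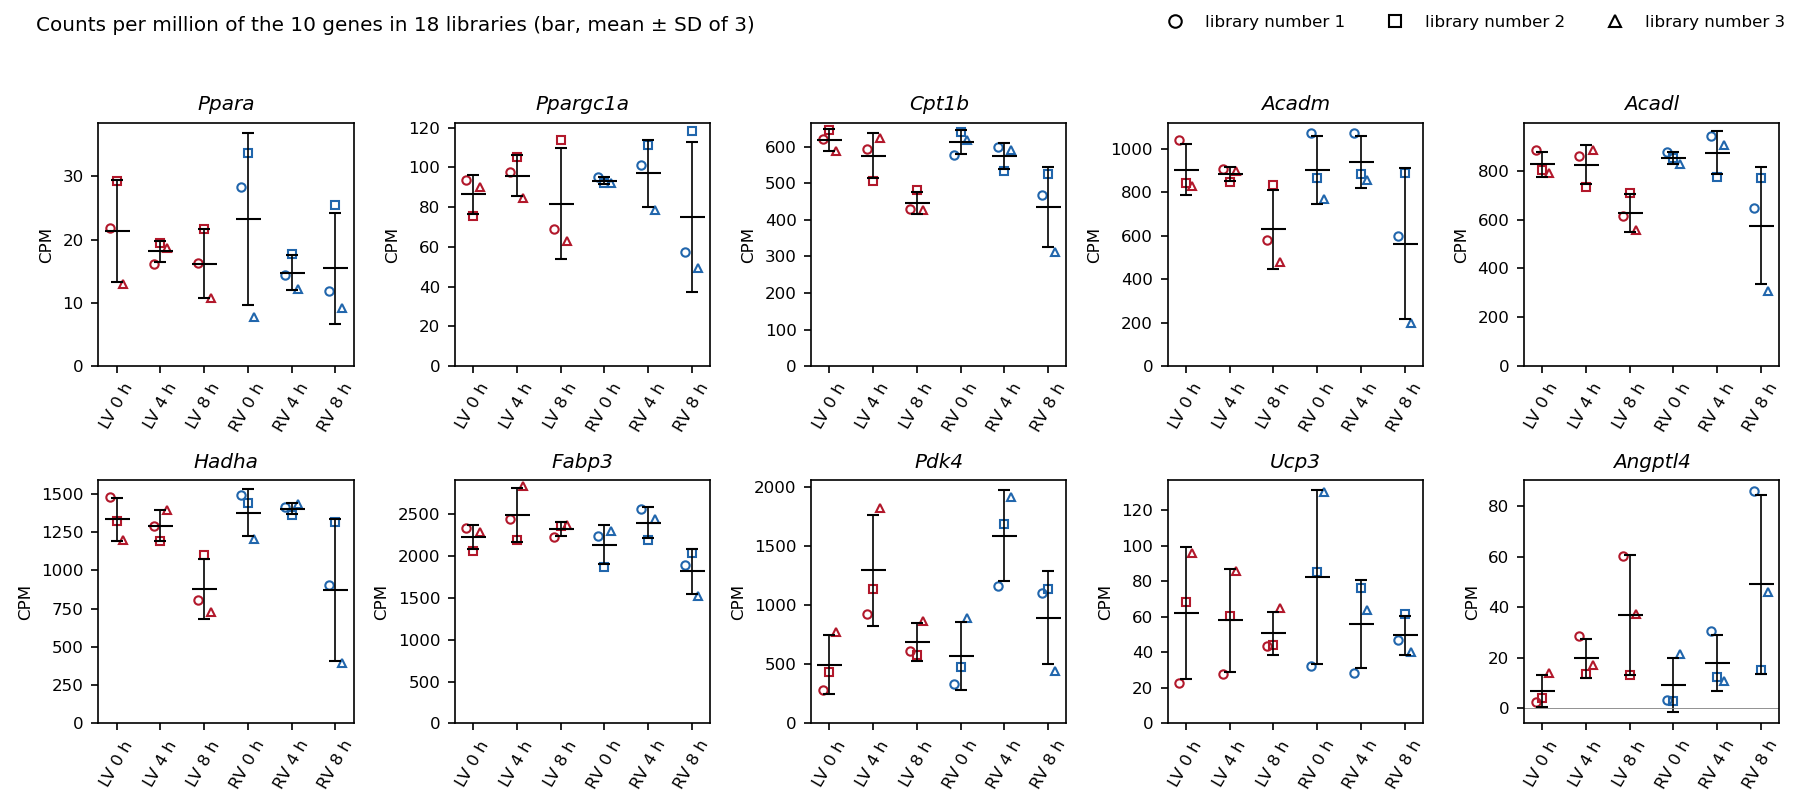
CPM of each of the 10 genes (vertical axis, linear) in LV (red) and RV (blue) after 0, 4 and 8 h of storage (horizontal axis), with 1 symbol per library and bars for the mean ± SD of 3. Pdk4 lies between 926 and 1913 CPM at 4 h, above all 0 h libraries, and RV 8 h library 3 is the lowest point of Cpt1b, Acadm, Acadl, Hadha and Fabp3.

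Ppara, the receptor gene, was at 21.8, 29.2 and 13.0 CPM at 0 h, 16.2, 19.5 and 18.6 CPM at 4 h and 16.2, 21.7 and 10.7 CPM at 8 h in LV. In RV it was at 28.4, 33.6 and 7.84 CPM at 0 h, 14.5, 17.7 and 12.2 CPM at 4 h and 11.8, 25.5 and 9.15 CPM at 8 h. The groups overlapped, and in both ventricles the 0 h library 3 had less Ppara than any 4 h library. The log2 change at 8 h was −0.39 (SE 0.31, edgeR adjusted p = 0.462) in LV and −0.59 (SE 0.51, edgeR adjusted p = 0.433) in RV. With 1 of the 6 libraries compared left out, it ran from −0.65 (without LV 0 h library 3) to −0.10 (without LV 0 h library 2) and from −1.14 (without RV 8 h library 2) to −0.23 (without RV 0 h library 2).

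Ppargc1a, the coactivator gene, was at 93.9, 75.4 and 90.1 CPM at 0 h, 97.7, 105 and 84.6 CPM at 4 h and 68.9, 114 and 62.8 CPM at 8 h in LV. The RV libraries had 95.3, 92.3 and 92.3 CPM at 0 h, 101, 111 and 78.7 CPM at 4 h and 57.3, 118 and 49.5 CPM at 8 h. The groups overlapped, since library 2 at 8 h was high in both ventricles while the other 8 h libraries were at 49.5 to 68.9 CPM. The log2 change at 8 h was −0.077 (SE 0.22, edgeR adjusted p = 0.852) in LV and −0.31 (SE 0.30, edgeR adjusted p = 0.484) in RV. Over the 6 libraries compared, left out in turn, it ran from −0.36 (without LV 8 h library 2) to 0.069 (without LV 8 h library 3) and from −0.79 (without RV 8 h library 2) to −0.079 (without RV 8 h library 3). Without RV 8 h library 2, Ppargc1a was called lower in RV (−0.79, edgeR adjusted p = 0.0210, range 0.0210 to 0.901 over the 6 libraries compared, left out in turn).

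The other regulators were followed through 24 genes of receptors, coactivators and corepressors, all tested. In LV, 0 were called by edgeR at 4 h (3 had an unadjusted p under 0.05 and DESeq2 called 1) and 2 were called lower at 8 h (Esrrb and Ppargc1b). The RV calls at 4 h were 4 genes higher and 1 lower. Those at 8 h were 4 genes higher and 2 lower, or 4 and 4 with the library number as a block. The median log2 change at 8 h was −0.17 in LV and −0.26 in RV, beside −0.017 and −0.072 over all genes. Without RV 8 h library 3 the RV median was −0.041, and without LV 8 h library 3 the LV median was −0.11. Pprc1, a coactivator related to PGC-1α, rose in RV at 4 h (1.09, SE 0.26, edgeR adjusted p = 0.0424) and at 8 h (1.48, SE 0.26, edgeR adjusted p = 0.00853). Sirt1, whose product deacetylates PGC-1α, rose in RV at 4 h (1.42, SE 0.22, edgeR adjusted p = 0.0106) and at 8 h (1.25, SE 0.22, edgeR adjusted p = 0.00864). Ppard, another PPAR gene, and Foxo1 were the other genes called higher in RV, with Ppard at 0.72 and 0.59 and Foxo1 at 0.65 and 0.81 at 4 and 8 h. Both, and Ppargc1b in LV at 8 h (−0.62), are named after their values were seen. Esrrb, an estrogen-related receptor gene, fell by 0.67 in LV (SE 0.20, edgeR adjusted p = 0.0928) and by 0.97 in RV (SE 0.34, edgeR adjusted p = 0.0892) at 8 h. Klf15, a regulator of lipid use, fell in RV by 1.00 at 4 h (SE 0.30, edgeR adjusted p = 0.0856) and by 0.88 at 8 h (SE 0.30, edgeR adjusted p = 0.0836). The 8 h calls of Esrrb and Klf15 in RV were lost without RV 8 h library 3, and that of Esrrb in LV without LV 8 h library 3. Of the 9 libraries of a fit left out in turn, 0 ended the RV calls of Sirt1 at 4 and 8 h and of Pprc1 and Foxo1 at 8 h by edgeR. The calls of Esrrb and Klf15 were each ended by 7 to 8 of the 9, and the others named here by 3 to 5. Esrra, the most abundant of the 24 (78.5 TPM), was not called.

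Fabp3, the cytosolic carrier, was at 2338, 2065 and 2291 CPM at 0 h, 2444, 2192 and 2843 CPM at 4 h and 2224, 2359 and 2378 CPM at 8 h in LV. The RV levels were 2241, 1873 and 2305 CPM at 0 h, 2566, 2198 and 2440.2 CPM at 4 h and 1894, 2036 and 1522 CPM at 8 h. The storage groups overlapped in LV, and in RV each 8 h library lay below each 4 h library but not below each 0 h library. The log2 change at 8 h against 0 h was 0.060 (SE 0.12, edgeR adjusted p = 0.792) in LV and −0.23 (SE 0.19, edgeR adjusted p = 0.410) in RV. When 1 of these 6 libraries per comparison was left out, it ran from 0.0054 (without LV 0 h library 2) to 0.093 (without LV 0 h library 1) and from −0.32 (without RV 0 h library 2) to −0.12 (without RV 8 h library 3).

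Uptake and activation of fatty acids were followed through 15 other genes, of which 14 were tested. In LV, 1 was called higher at 4 h and 2 at 8 h. In RV, 1 was called higher at 4 h (2 with the block). At 8 h the RV calls were 3 genes higher and 1 lower (3 and 2 with the block). The median log2 change at 8 h was −0.057 in LV and −0.24 in RV. Without library 3 at 8 h it was −0.033 in LV and −0.086 in RV. The genes called higher encode acyl-CoA synthetases, which join fatty acids to coenzyme A. Acsl4 rose in LV at 4 h (0.74, SE 0.17, edgeR adjusted p = 0.0830) and 8 h (0.65, SE 0.17, edgeR adjusted p = 0.0737). In RV, Acsl4 rose at 4 h (1.20, SE 0.20, edgeR adjusted p = 0.0140) and 8 h (1.60, SE 0.21, edgeR adjusted p = 0.00251). Acsl5 rose at 8 h in LV (0.93, SE 0.24, edgeR adjusted p = 0.0716) and RV (1.24, SE 0.30, edgeR adjusted p = 0.0251). Acsl3 rose in RV at 8 h (0.69, SE 0.25, edgeR adjusted p = 0.0960). Slc27a1, a fatty acid transporter gene, fell by 0.86 in RV at 8 h (SE 0.19, edgeR adjusted p = 0.0212). Of the 9 libraries of a fit left out in turn, 0 ended the RV calls of Acsl4 and Slc27a1, and RV 0 h library 2 ended that of Acsl5. The LV calls of Acsl4 were ended by 7 of the 9 at 4 h and 5 at 8 h, that of Acsl5 by 6, and the RV call of Acsl3 by 7. Library 3 at 8 h was among them for the 8 h calls of Acsl4 and Acsl5 in LV and of Acsl3 in RV. Per length, these synthetase genes were low (Acsl4 5.63, Acsl5 7.56 and Acsl3 3.46 TPM). Lpl, which encodes lipoprotein lipase, was the most abundant of the list (1376 TPM) and was not called.

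Cpt1b, the gene of the muscle enzyme that admits fatty acids to mitochondria, was at 622, 646 and 587 CPM at 0 h, 594, 506 and 624 CPM at 4 h and 429, 481 and 427 CPM at 8 h in LV. The RV libraries had 577, 641 and 617 CPM at 0 h, 599, 532 and 590.1 CPM at 4 h and 467, 524 and 313 CPM at 8 h. In both ventricles every 8 h library lay below every 0 h and 4 h library. In LV the log2 change at 8 h was −0.47 (SE 0.12, edgeR adjusted p = 0.0653), past the limit on p but not on fold change. Of the 10 genes, Cpt1b and Hadha passed that limit on p alone in the lower direction, beside 2.34% of all genes. In RV the change was −0.49 (SE 0.20, edgeR adjusted p = 0.136), and −0.30 without RV 8 h library 3. Without RV 8 h library 2, Cpt1b was called lower in RV (−0.64, edgeR adjusted p = 0.0546, range 0.0546 to 0.299 over the 6 libraries compared, left out in turn).

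Of 8 other genes of the carnitine shuttle and its control by malonyl-CoA, 8 had log2 changes below 0 at 8 h in LV and 8 in RV. Of all genes, 48.3% in LV and 45.0% in RV lay above 0. The medians of the 8 genes were −0.32 and −0.49. In LV, 2 were called lower at 8 h, and in RV 1 was called lower (2 with the block). Cpt1a, the gene of the other CPT1 enzyme of the heart, fell by 0.68 in LV (SE 0.19, edgeR adjusted p = 0.0815) and by 0.96 in RV (SE 0.22, edgeR adjusted p = 0.0216). Acacb encodes the enzyme that makes malonyl-CoA, the inhibitor of CPT1. It fell by 0.75 in LV (SE 0.14, edgeR adjusted p = 0.0302) and was at −0.72 (SE 0.26, edgeR adjusted p = 0.102) in RV, where it was called lower with the block. No library left out ended the Cpt1a call in RV. In LV that call was ended by 6 of the 9 libraries left out in turn, LV 8 h library 3 among them, and the Acacb call by LV 0 h library 2. Crat, the most abundant of the list (176 TPM), was not called.

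Acadm, the gene of the medium-chain acyl-CoA dehydrogenase, was at 1039.7, 842 and 830.1 CPM at 0 h, 908, 849.7 and 900.2 CPM at 4 h and 579.8, 832 and 480.2 CPM at 8 h in LV. In RV it was at 1076, 868 and 770.1 CPM at 0 h, 1075, 884 and 859 CPM at 4 h and 600.1, 890.5 and 199.7 CPM at 8 h. Library 2 at 8 h reached the level of 0 h in both ventricles, so the groups overlapped, while libraries 1 and 3 at 8 h were lower than every 0 h library. The log2 change at 8 h was −0.52 (SE 0.19, edgeR adjusted p = 0.159) in LV and −0.69 (SE 0.42, edgeR adjusted p = 0.284) in RV. Without LV 8 h library 2, Acadm was called lower in LV (−0.74, edgeR adjusted p = 0.0331, range 0.0331 to 0.351 over the 6 libraries compared, left out in turn), beside 3.41% of all genes in that fit.

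Acadl, the gene of the long-chain dehydrogenase, was at 885, 803 and 793 CPM at 0 h, 859, 733 and 883 CPM at 4 h and 614, 711 and 556 CPM at 8 h in LV. The RV levels were 878, 854 and 829 CPM at 0 h, 943, 775 and 907 CPM at 4 h and 649, 770.0 and 308 CPM at 8 h. At 8 h every library lay below every 0 h library in both ventricles, with the widest spread in RV. The log2 change at 8 h was −0.40 (SE 0.13, edgeR adjusted p = 0.124) in LV and −0.57 (SE 0.29, edgeR adjusted p = 0.205) in RV, and neither was called.

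Hadha, the gene of the alpha subunit of the trifunctional protein, which carries out later steps of beta oxidation, was at 1477, 1324 and 1199 CPM at 0 h, 1293, 1191 and 1392 CPM at 4 h and 807, 1098 and 729.8 CPM at 8 h in LV. RV had 1491, 1440.2 and 1202 CPM at 0 h, 1411, 1363 and 1436 CPM at 4 h and 904, 1316 and 395 CPM at 8 h. In LV every 8 h library lay below every 0 h library, while in RV library 2 at 8 h was within the range of 0 h. In LV, Hadha fell by 0.60 at 8 h (SE 0.17, edgeR adjusted p = 0.0820). In RV the log2 change was −0.66 (SE 0.35, edgeR adjusted p = 0.221). In LV, 3 of the 10 genes (Cpt1b, Acadl and Hadha) had every 8 h library below every 0 h library, beside 13.1% of all genes, and in RV 2 (Cpt1b and Acadl), beside 17%.

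The Hadha call in LV depended on single libraries. It was kept without LV 8 h library 2 (−0.76, edgeR adjusted p = 0.0281). The edgeR adjusted p of Hadha was 0.193 without LV 0 h library 1, 0.251 without LV 0 h library 2, 0.146 without LV 0 h library 3, 0.122 without LV 4 h library 1, 0.109 without LV 4 h library 2, 0.182 without LV 8 h library 1 and 0.199 without LV 8 h library 3. Without LV 4 h library 3 it was 0.0905, with a log2 change of −0.58 that missed the limit on fold change. The call was also lost with all 18 libraries in 1 fit (edgeR adjusted p = 0.279) and with only the 6 libraries compared (edgeR adjusted p = 0.141), and the range over the alternatives was 0.0124 to 0.279.

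For Acadm, Acadl and Hadha in RV at 8 h, the log2 change was lowest without RV 8 h library 2 and nearest 0 without RV 8 h library 3. Without RV 8 h library 2, Acadm (−1.19, edgeR adjusted p = 0.0639), Acadl (−0.84, edgeR adjusted p = 0.0662) and Hadha (−1.09, edgeR adjusted p = 0.0417) were called lower, as were Ppargc1a and Cpt1b, which made 5 of the 10 genes beside 13.4% of all genes in that fit. Over the 6 libraries compared, left out in turn, the edgeR adjusted p in RV ranged from 0.0639 to 0.510 for Acadm, 0.0662 to 0.350 for Acadl and 0.0417 to 0.388 for Hadha. Without RV 8 h library 3, the log2 changes in RV were −0.27 for Acadm, −0.26 for Acadl and −0.30 for Hadha, and edgeR called none of the 10 genes.

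Of 15 other genes of beta oxidation, 14 had log2 changes below 0 at 8 h in LV and 14 in RV. Of all genes, 48.3% in LV and 45.0% in RV lay above 0. At 8 h the median of the 15 genes was −0.34 in LV and −0.49 in RV. At 4 h it was 0.023 and 0.083. By edgeR 0 of the 15 were called in these 4 comparisons, with or without the block in RV. At 8 h an unadjusted p under 0.05 was found for 6 of the 15 in LV and 1 in RV, and DESeq2 called 0 and 0. At 4 h these counts were 0 and 1 by unadjusted p, and 0 and 0 by DESeq2. In LV at 8 h, Acadvl (−0.51), Etfa (−0.45) and Etfdh (−0.58), named after their values were seen, passed the limit on p alone. Ech1, an isomerase gene and the most abundant of the list (1104 TPM), was at −0.31 (SE 0.15, edgeR adjusted p = 0.255) in LV and −0.55 (SE 0.24, edgeR adjusted p = 0.160) in RV.

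The TCA cycle burns the acetyl-CoA that beta oxidation yields, and 16 of its 16 genes had log2 changes below 0 at 8 h in LV and 16 in RV. Of all genes, 48.3% in LV and 45.0% in RV lay above 0. The medians of the 16 genes were −0.31 in LV and −0.49 in RV, beside −0.25 and −0.33 for the cardiomyocyte markers. Idh2, the most abundant of them (923 TPM), fell by 0.65 in RV at 8 h (SE 0.24, edgeR adjusted p = 0.0991). This call was ended by 8 of the 9 libraries left out in turn, RV 8 h library 3 among them. By edgeR it was the 1 call in the cycle. In LV at 8 h, 5 of the 16 genes had an unadjusted p under 0.05, beside 23.3% of all genes, and DESeq2 called 1 lower. Without RV 8 h library 3, the RV medians were −0.21 for beta oxidation, −0.19 for the TCA cycle, −0.19 for the carnitine shuttle and −0.16 for the cardiomyocyte markers. Without LV 8 h library 3, the LV medians in the same order were −0.28, −0.21, −0.25 and −0.20. The part of cardiomyocyte content in these values was not tested.

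**Figure D2:**
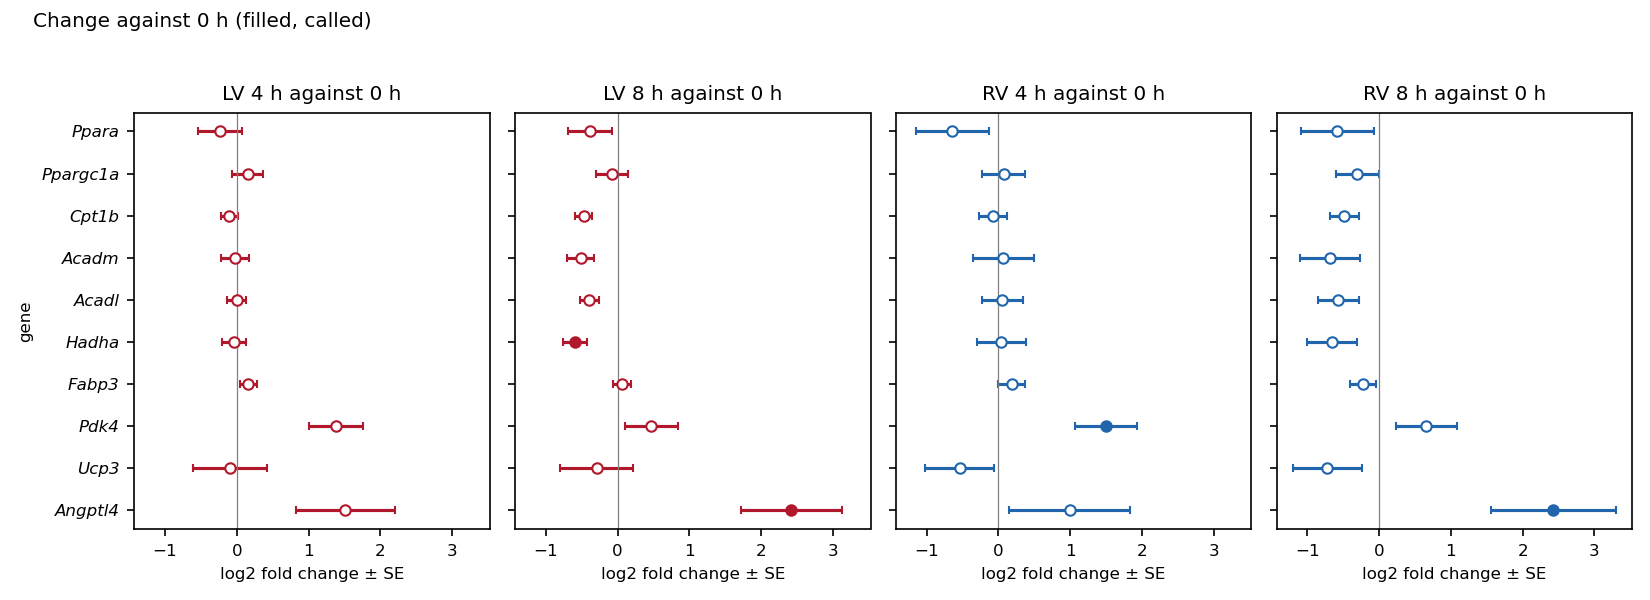
Log2 fold change ± SE from edgeR (horizontal axis) of each of the 10 genes (vertical axis) at 4 and 8 h against 0 h in LV (red) and RV (blue), with filled points for called genes. Angptl4 at 8 h (2.42 in LV and 2.42 in RV) lies farthest above 0, and Pdk4 at 4 h is at 1.38 in LV and 1.499 in RV.

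Pdk4 encodes the kinase that switches off pyruvate dehydrogenase and so spares glucose when fat is burned. In LV it was at 286, 433 and 772 CPM at 0 h, 926, 1135 and 1827 CPM at 4 h and 612, 579 and 869.8 CPM at 8 h. In RV it was at 336, 479.8 and 893 CPM at 0 h, 1164, 1688 and 1913 CPM at 4 h and 1108, 1135 and 445 CPM at 8 h. At 4 h every library lay above every 0 h library in both ventricles, and at 8 h the groups overlapped with those of 0 h. Pdk4 was the 1 gene of the 10 with this pattern at 4 h, beside 12.9% of all genes in LV and 15.1% in RV. In RV, Pdk4 rose at 4 h (1.499, SE 0.43, edgeR adjusted p = 0.0750), which was 2.83-fold. With the library number as a block the RV value was 1.52 (SE 0.45, edgeR adjusted p = 0.0706, range 0.00375 to 0.0885 over the alternatives). In LV the log2 change at 4 h was 1.38 (SE 0.38, edgeR adjusted p = 0.127) and was not called. DESeq2 called this LV change, as did edgeR with no filter, with a Y-linked covariate and with the block (1.43, edgeR adjusted p = 0.0162). Across times in LV, libraries with the same number deviated together in only 5 of 9 pairs, so the pairing behind this block was not established. The difference between the ventricles in this change was −0.10 (SE 0.61, edgeR adjusted p = 1.00).

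The Pdk4 call in RV at 4 h was lost without some libraries. The edgeR adjusted p was 0.169 without RV 0 h library 1, 0.252 without 0 h library 2, 0.122 without 4 h library 1, 0.162 without 4 h library 2, 0.182 without 4 h library 3 and 0.101 without 8 h library 1. The log2 change over all libraries left out in turn was 1.23 to 1.98. In LV at 4 h, Pdk4 was called higher without LV 8 h library 3 (1.38, edgeR adjusted p = 0.0807), beside 4.53% of all genes in that fit. At 8 h the log2 change of Pdk4 was 0.47 (SE 0.37, edgeR adjusted p = 0.467) in LV and 0.66 (SE 0.42, edgeR adjusted p = 0.303) in RV, or 0.98 in RV without 8 h library 3. Over the 6 libraries compared, left out in turn, it ran from 0.19 (without LV 0 h library 1) to 0.94 (without LV 0 h library 3) and from 0.39 (without RV 0 h library 1) to 1.13 (without RV 0 h library 3).

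Of 20 other genes of pyruvate dehydrogenase and glucose use, 0 were called by edgeR in LV at 4 h (2 had an unadjusted p under 0.05 and DESeq2 called 0) and 1 was called lower at 8 h. In RV, 1 was called lower at 4 h. At 8 h the RV calls were 1 gene higher and 2 lower (1 and 6 with the block, whose share over all genes is not given). The median log2 change at 8 h was −0.32 in LV and −0.46 in RV. Without library 3 at 8 h it was −0.20 in LV and −0.13 in RV. Pdp1 and Pdp2 encode the phosphatases that undo the action of the PDK kinases. Pdp1 fell at 8 h by 0.67 in LV (SE 0.15, edgeR adjusted p = 0.0490) and by 0.67 in RV (SE 0.21, edgeR adjusted p = 0.0619). Pdp2 fell in RV by 0.99 at 4 h (SE 0.31, edgeR adjusted p = 0.0937) and by 0.90 at 8 h (SE 0.31, edgeR adjusted p = 0.0840). At 4 h in RV, the kinase gene Pdk4 was thus higher and the phosphatase gene Pdp2 lower. Slc2a1, the gene of the glucose transporter GLUT-1, rose in RV at 8 h (1.02, SE 0.32, edgeR adjusted p = 0.0653). All 4 of these 8 h calls (Pdp1 in LV and RV, Pdp2 and Slc2a1 in RV) were lost without library 3 at 8 h of the same ventricle. Of the 9 libraries of a fit left out in turn, 5 ended the Pdp1 call in LV and 4 in RV, 6 ended the Pdp2 call at 4 h and 6 at 8 h, and 5 ended the Slc2a1 call. Ldhb, the most abundant of the list (1171 TPM), was not called.

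Ucp3 encodes a carrier of the mitochondrial inner membrane. In LV it was at 22.4, 68.4 and 95.8 CPM at 0 h, 27.9, 60.6 and 85.5 CPM at 4 h and 43.3, 43.8 and 64.8 CPM at 8 h. RV had 32.4, 85.1 and 130.0 CPM at 0 h, 28.5, 76.4 and 63.5 CPM at 4 h and 46.9, 61.7 and 39.9 CPM at 8 h. Library 1 had the lowest Ucp3 in every group except RV at 8 h, and the storage groups overlapped. The log2 change at 8 h was −0.29 (SE 0.51, edgeR adjusted p = 0.754) in LV and −0.72 (SE 0.48, edgeR adjusted p = 0.314) in RV. When 1 of the 6 libraries compared was left out, it ran from −0.70 (without LV 0 h library 1) to 0.16 (without LV 0 h library 3) and from −1.11 (without RV 0 h library 1) to −0.24 (without RV 0 h library 3). Of 7 other genes of uncoupling proteins and the ANGPTL family, 5 were tested and 1 (Angptl2) was called, lower at 8 h in both ventricles, and in RV at 4 h with the block. The median log2 change at 8 h was 0.11 in LV and −0.19 in RV (0.060 and −0.19 without library 3 at 8 h), and Ucp2, the most abundant (45.8 TPM), was not called.

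Angptl4 encodes a secreted inhibitor of lipoprotein lipase. In LV it was at 2.66, 4.05 and 14.2 CPM at 0 h, 28.5, 13.8 and 17.0 CPM at 4 h and 60.5, 13.3 and 37.4 CPM at 8 h. In RV it was at 3.19, 2.81 and 21.6 CPM at 0 h, 30.8, 12.6 and 10.9 CPM at 4 h and 86.0, 15.2 and 46.3 CPM at 8 h. Libraries 1 and 3 at 8 h lay above every 0 h library, but library 2 at 8 h was below library 3 at 0 h in both ventricles, so the groups overlapped. Angptl4 rose at 8 h in LV (2.42, SE 0.70, edgeR adjusted p = 0.0918), which was 5.35-fold. In RV it rose at 8 h (2.42, SE 0.87, edgeR adjusted p = 0.0976), which was 5.37-fold. With the library number as a block the RV value was 2.46 (SE 0.76, edgeR adjusted p = 0.0558, range 0.0537 to 0.132 over the alternatives). At 4 h the log2 change was 1.51 (SE 0.68, edgeR adjusted p = 0.328) in LV and 1.00 (SE 0.84, edgeR adjusted p = 0.607) in RV, and neither was called. Over the 6 libraries compared, left out in turn, it ran from 1.11 (without LV 0 h library 1) to 2.57 (without LV 0 h library 3) and from 0.36 (without RV 4 h library 1) to 2.61 (without RV 0 h library 3).

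Both Angptl4 calls depended on single libraries. In LV, Angptl4 was called without 0 h library 3 (3.48, edgeR adjusted p = 0.0700) and without 8 h library 2 (2.85, edgeR adjusted p = 0.0444). The edgeR adjusted p of Angptl4 in LV was 0.193 without 0 h library 1, 0.307 without 0 h library 2, 0.114 without 4 h library 1, 0.120 without 4 h library 2, 0.103 without 4 h library 3, 0.197 without 8 h library 1 and 0.181 without 8 h library 3. In RV, Angptl4 was called without 0 h library 3 (4.03, edgeR adjusted p = 0.0350) and without 8 h library 2 (2.85, edgeR adjusted p = 0.0455). The edgeR adjusted p of Angptl4 in RV was 0.218 without 0 h library 1, 0.256 without 0 h library 2, 0.108 without 4 h library 1, 0.131 without 4 h library 2, 0.105 without 4 h library 3, 0.235 without 8 h library 1 and 0.169 without 8 h library 3. The lowest log2 change was 1.87 in LV and 1.79 in RV, in both without 8 h library 1. With only the 6 libraries compared, the edgeR adjusted p was 0.142 in LV and 0.132 in RV. With all 18 libraries in 1 fit, the LV call was lost (edgeR adjusted p = 0.1501, range 0.0260 to 0.1501 over the alternatives).

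Of 18 other genes known as PPAR targets, 16 were tested, and their median log2 change at 8 h was −0.21 in LV and −0.31 in RV. Without library 3 at 8 h it was −0.25 in LV and −0.13 in RV. Txnip, the most abundant of the list (189 TPM), was not called. Of 12 genes of lipid droplets and triglyceride turnover, 1 was called lower in LV at 8 h. The RV calls at 8 h were 1 gene higher and 1 lower (1 and 2 with the block). Their median log2 change at 8 h was −0.15 in LV and −0.29 in RV. Without library 3 at 8 h it was −0.047 in LV and −0.14 in RV. Angptl2, a relative of Angptl4 on this list too, fell at 8 h by 0.70 in LV (SE 0.19, edgeR adjusted p = 0.0797) and by 0.86 in RV (SE 0.22, edgeR adjusted p = 0.0324). Dgat1, whose enzyme completes triglyceride synthesis, rose in RV at 8 h (0.75, SE 0.23, edgeR adjusted p = 0.0615). The Angptl2 call was ended in LV by 6 of the 9 libraries left out in turn, LV 8 h library 3 among them, and in RV by RV 0 h library 2. The Dgat1 call was ended by 4, RV 8 h library 3 among them. Pnpla2, a lipase gene and the most abundant of the list (199.8 TPM), was not called.

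Markers of other cell types were set beside Angptl4 and Pdk4. The summed level of 7 macrophage markers in LV was 119, 139.6 and 176 CPM at 0 h, 172, 183 and 118 CPM at 4 h and 224, 168 and 138 CPM at 8 h. In RV it was 152, 159.9 and 225 CPM at 0 h, 199.7, 209 and 163 CPM at 4 h and 353, 232 and 169.5 CPM at 8 h. RV 8 h library 1 had both the highest macrophage sum and the highest Angptl4 of the 18 libraries. RV 8 h library 2 had the next highest sum (232 CPM) and the lowest Angptl4 of its group (15.2 CPM). In RV at 8 h, 3 of 7 macrophage markers were called higher, Mrc1 (1.05), Lyve1 (0.91) and Adgre1 (0.90). No library left out ended the Mrc1 call, 3 of the 9 ended that of Lyve1, and RV 0 h library 2 that of Adgre1. In LV at 8 h edgeR called 0 of the 7, with 3 at an unadjusted p under 0.05, beside 23.3% of all genes, and 1 called by DESeq2. The most abundant macrophage marker was Mrc1 by CPM and C1qa per length. The part of macrophages in the Angptl4 level was not tested.

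Neutrophil markers summed to 2.17 ± 0.227 CPM at 0 h, 6.14 ± 2.33 CPM at 4 h and 15.0 ± 4.73 CPM at 8 h in LV, and 2.71 ± 0.869, 7.76 ± 2.44 and 16.7 ± 3.78 CPM in RV (mean ± SD, n = 3). Of 7 neutrophil markers, 4 were tested in LV and 2 in RV. Csf3r was the most abundant and rose in both ventricles at 4 and 8 h (1.72 and 2.52 in LV, 1.83 and 2.88 in RV). S100a8 (6.89) and S100a9 (6.64) also rose in LV at 8 h and were not tested in RV, while Ly6g stayed under 0.5 CPM in every library. The Csf3r call at 4 h in LV was ended by 3 of the 9 libraries left out in turn, the S100a9 call by LV 0 h library 2, and the other calls by none. Adipocyte markers summed to 23.1 ± 2.49 CPM at 0 h, 25.1 ± 5.41 CPM at 4 h and 28.7 ± 8.63 CPM at 8 h in LV, and 25.4 ± 3.03, 28.9 ± 8.66 and 37.6 ± 13.4 CPM in RV. Of 8 adipocyte markers, Cidea was the most abundant, Lep stayed under 0.5 CPM in every library, and edgeR called 0 of the 5 tested in LV and 0 of the 6 tested in RV at 8 h (1 in RV with the block). Of those tested, 0 in LV and 3 in RV had an unadjusted p under 0.05 at 8 h, and DESeq2 called 0 and 3. Erythroid markers, led by Hbb-bs, summed to 5.31 ± 0.856 CPM at 0 h, 34.9 ± 43.2 CPM at 4 h and 79.6 ± 101 CPM at 8 h in LV, and 3.75 ± 1.91, 39.5 ± 58.1 and 28.8 ± 24.2 CPM in RV, with the highest values in LV 8 h library 1 (196 CPM) and RV 4 h library 1 (107 CPM). Of 5 erythroid markers, 4 were tested in LV and 4 in RV. Hbb-bs (3.90) and Hbb-bt (3.80) were called higher in LV at 8 h, and in RV 0 by edgeR at 4 or 8 h (with the block, 2 at 4 h and 4 at 8 h). The Hbb-bs and Hbb-bt calls were each ended by 6 and 6 of the 9 libraries left out in turn, LV 8 h library 3 among them. In RV the unadjusted p was under 0.05 for 4 at 4 h and 2 at 8 h, and DESeq2 called 3 and 3. The part of these cells in the Angptl4 and Pdk4 values was not tested.

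Endothelial markers summed to 799 ± 132 CPM at 0 h, 648 ± 184 CPM at 4 h and 769 ± 147 CPM at 8 h in LV, and 796 ± 213, 580.0 ± 151 and 765 ± 153 CPM in RV. Of these 7 markers, Egfl7, the most abundant per length, was lower in RV at 4 h (−1.97) and 8 h (−2.002), and Tek in RV at 4 h (−0.72, not called with the block). In LV edgeR called 0 of the 7 at 4 and 8 h, where the lowest log2 change was −1.60 and −1.20. DESeq2 called 1 of them lower in LV at each time. Fibroblast markers, led by Dcn, summed to 837 ± 44.6 CPM at 0 h, 955 ± 173 CPM at 4 h and 1110.0 ± 263 CPM at 8 h in LV, and 961 ± 40.8, 1029.7 ± 122 and 1338 ± 468 CPM in RV, and 1 of 7, Tcf21, was called higher in RV at 8 h (0.98; 3 with the block). Smooth muscle and pericyte markers, led by Rgs5, summed to 767 ± 59.2 CPM at 0 h, 719 ± 92.1 CPM at 4 h and 905 ± 67.1 CPM at 8 h in LV, and 802 ± 118, 747 ± 77.2 and 1040.4 ± 227 CPM in RV. Of these 7 markers, Kcnj8 was called lower in RV at 4 h (−1.32) and 8 h (−1.48), and Pdgfrb at 4 h (−0.70), while with the block 2 were also called higher in RV at 8 h. In LV edgeR called 0 of the 7 at 4 and 8 h, where the lowest log2 change was −1.21 and −0.95. DESeq2 called 1 of them lower in LV at 4 h and 0 at 8 h. Atrial markers, led by Nppa, summed to 233 ± 85.1 CPM at 0 h, 251 ± 50.8 CPM at 4 h and 317 ± 47.6 CPM at 8 h in LV, and 267 ± 129.6, 177 ± 112 and 389 ± 369.7 CPM in RV, and 1 of 6, Nr2f2, was called lower at 4 h in LV (−1.16) and RV (−1.41), and the blocked fit called it lower at 8 h in RV too. Of the 9 libraries of a fit left out in turn, 2 ended the Egfl7 call at 4 h and 0 that at 8 h, 7 that of Tek, 4 that of Tcf21, 7 that of Kcnj8 at 4 h and 3 at 8 h, 3 that of Pdgfrb, and 4 in LV and 4 in RV that of Nr2f2. The part of these cells in the values of the 10 genes was not tested.

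The step from 4 to 8 h was compared as well. By edgeR and by DESeq2, 0 of the 10 genes were called in LV and 0 in RV, beside 0% and 0% of all genes by edgeR. In LV, 5 of the 10 had an unadjusted p under 0.05, beside 8.1% of all genes, and in RV 0, beside 6.57%. In LV every 8 h library lay below every 4 h library for 5 genes (Cpt1b, Acadm, Acadl, Hadha and Pdk4), beside 7.59% of all genes. In RV this held for 5 genes (Cpt1b, Acadl, Hadha, Fabp3 and Pdk4), beside 5.57%. Pdk4 had a log2 change of −0.91 (SE 0.37, edgeR adjusted p = 0.597) in LV and −0.84 (SE 0.43, edgeR adjusted p = 0.599) in RV from 4 to 8 h.

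LV and RV were compared at each storage time to see where the ventricles differ. By edgeR and by DESeq2, 0 of the 10 genes were called at 0, 4 or 8 h, beside 0.159%, 0.0133% and 0.0331% of all genes by edgeR. The unadjusted p was under 0.05 for 0, 0 and 1 of the 10, beside 3.21%, 2.96% and 11.1% of all genes. LV and RV libraries with the same number and storage time deviated together from their group means in 9 of 9 pairs (mean r = 0.53), and such a pair is called a heart below. With the heart as a block edgeR again called 0 of the 10, beside 1.85%, 1.93% and 8.78% of all genes. Fabp3 at 8 h was higher in LV in 3 of 3 hearts, with every LV library above every RV library, beside 5.16% of all genes. Its log2 difference, LV against RV, was 0.35 (SE 0.15, edgeR adjusted p = 0.391), or 0.36 with the block (SE 0.11, edgeR adjusted p = 0.0356), under the limit on fold change.

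The difference between the ventricles in the change from 0 h was tested for each gene. By edgeR and by DESeq2, 0 of the 10 genes were called at 4 h or 8 h, beside 0% and 0% of all genes by edgeR, and the unadjusted p was under 0.05 for 0 and 0, beside 1.05% and 4.16%. With the heart as a block 0 were called by edgeR, beside 0.305% and 5.71%. For Angptl4 at 8 h the difference was −0.0015 (SE 1.33, edgeR adjusted p = 1.00), for Hadha 0.059 (SE 0.41, edgeR adjusted p = 1.00) and for Fabp3 0.29 (SE 0.21, edgeR adjusted p = 1.00).

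Pdk4 was lower in LV than in RV in 8 of 9 hearts, and heart 3 at 8 h was the exception, with 869.8 CPM in LV and 445 CPM in RV. Hadha was likewise higher in LV in 1 of 9 hearts, also heart 3 at 8 h. Acadl and Ucp3 were higher in LV in 2 of 9 hearts, and Fabp3 and Ppara in 6 of 9. With all hearts, the log2 difference of Pdk4 at 8 h was −0.38 (SE 0.43, edgeR adjusted p = 0.766), or −0.31 with the block (SE 0.29, edgeR adjusted p = 0.473).

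Across the 18 libraries, which share groups and hearts, the oxidation genes varied together. Pearson's r of log2 CPM was 0.98 between Acadl and Hadha, 0.98 between Acadm and Hadha, 0.97 between Acadm and Acadl, and 0.94 between Cpt1b and Acadl. Pdk4 had an r of 0.18 with Hadha and 0.093 with Cpt1b. Pdk4 and Ucp3 had an r of 0.40, and of 0.83 for the deviations from group means. Angptl4 and Ppara had an r of −0.72, and of −0.80 for the deviations, so within a group libraries with more Ppara tended to have less Angptl4.

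The genes most like each of the 10 over the 18 libraries were found by Pearson's r among 8668 genes. For Acadm they were Acat1 (0.99), Sucla2 (0.99) and Immt (0.99), for Acadl Fh1 (0.99), Atp5a1 (0.99) and Idh3g (0.99) and for Hadha Mccc1 (0.99), Trap1 (0.99) and Pygm (0.99). For Cpt1b they were Chd1l (0.97), Ppp1r7 (0.96) and Idh3g (0.94), and for Fabp3 Bsg (0.97), Prdx2 (0.96) and Cox10 (0.95). Acadm, Acadl and Hadha thus had partners at higher r than the PPAR targets Pdk4, Ucp3 and Angptl4. For Pdk4 they were Dyrk2 (0.84), Tubb4b (0.83) and Scd4 (0.82), for Ucp3 Aldh9a1 (0.83), Zbtb43 (0.81) and Ints7 (0.81) and for Angptl4 C1qb (0.95), Ctss (0.92) and Prg4 (0.91). For Ppara they were Atp11b (0.89), Camsap1 (0.87) and D5Ertd579e (0.87), and for Ppargc1a Chpt1 (0.92), Pde1c (0.90) and Pex11a (0.90).

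Promoter windows from RefSeq (build GRCm38.p6), from 250 bases before to 50 after the start of each gene, were at hand for 8 of the 10 genes, without Cpt1b and Angptl4. PPARα binds DNA with RXR at 2 copies of a short element. Each window was searched on both strands for that element (AGGTCA) and for its direct repeat with 1 base between (DR1, up to 2 mismatches). It was also searched for TCAAGGTCA, bound by estrogen-related receptors, and for CACGTG, the E-box. The short element lies within the estrogen-related receptor site and the exact repeat. Of 32544 distinct windows of all genes, 16.2% held AGGTCA, 3.88% DR1, 0.412% TCAAGGTCA and 7.17% CACGTG. The element was found in the windows of Acadm and Ucp3, DR1 in that of Ucp3, and the other motifs in none of the 8. The windows of Pdk4, at chr6:5496229-5496528 (minus strand), and Hadha, at chr5:30154931-30155230 (minus strand), are shown because these genes were called, and that of Ucp3, at chr7:100472741-100473040 (plus strand), because it holds the DR1 match. They are written 5′ to 3′, with matches in capitals.
Pdk4: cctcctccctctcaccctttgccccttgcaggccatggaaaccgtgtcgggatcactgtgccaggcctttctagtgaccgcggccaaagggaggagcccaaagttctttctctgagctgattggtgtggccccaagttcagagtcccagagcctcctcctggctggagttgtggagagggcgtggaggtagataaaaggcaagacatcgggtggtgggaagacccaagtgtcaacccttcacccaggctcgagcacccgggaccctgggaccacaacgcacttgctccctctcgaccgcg
Hadha: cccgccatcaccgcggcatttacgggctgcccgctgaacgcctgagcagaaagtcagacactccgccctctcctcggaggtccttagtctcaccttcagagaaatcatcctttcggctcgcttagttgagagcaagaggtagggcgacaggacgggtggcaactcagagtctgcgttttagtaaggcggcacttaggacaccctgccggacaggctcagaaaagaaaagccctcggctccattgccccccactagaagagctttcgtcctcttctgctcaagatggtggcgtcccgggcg
Ucp3: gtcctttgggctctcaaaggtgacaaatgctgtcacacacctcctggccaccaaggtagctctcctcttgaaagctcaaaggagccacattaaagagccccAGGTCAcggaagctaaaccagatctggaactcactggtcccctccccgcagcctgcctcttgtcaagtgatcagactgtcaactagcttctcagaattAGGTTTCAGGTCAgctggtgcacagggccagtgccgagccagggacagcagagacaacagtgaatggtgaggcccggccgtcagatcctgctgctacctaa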

How the data were processed

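RNA-seq was measured in 18 libraries, 3 per group of ventricle and storage time. The authors deposited, for each library, transcript tables made with Kallisto against GRCm38 transcripts, with estimated counts (expected counts, not normalized between libraries) and TPM (scaled by length and library), and with transcript length and effective length in bases. Of 111462 transcripts, 110203 were matched to genes by identifier (GENCODE) and summed; 1259 were not. Rounded sums were fitted in R 4.3.3 with edgeR 4.0.16 (filterByExpr, TMM, quasi-likelihood F-test) on the 9 libraries of a ventricle for storage times (14564 genes tested in LV and 14622 in RV) and on all 18 for LV against RV and for the difference of changes (15093 genes). P-values were adjusted over all tested genes. Alternatives were DESeq2 1.42.0, transcript length offsets, RLE and upper-quartile factors, no filter, no mitochondrial genome, other library sets, a replicate block, a Y-linked covariate, other thresholds and each library left out. For storage times, counts called with this block or by DESeq2 have no share of all genes from the same fit beside them. They are not read against a background. Replicate numbers were read as pairs where libraries with the same number deviated together from their group means: this held between ventricles (9 of 9 pairs with r over 0.1) and across times in RV (9 of 9), where the block is given beside the result, but not across times in LV (5 of 9). In LV the block is used only as an alternative. Genes named besides the 10 were, of each list, the called genes (up to 4 by the largest change at 8 h) and the most abundant per length, and for likeness the 3 with the highest Pearson's r. The 10 genes and the lists were chosen with earlier results of these data known. Scripts ran in Python 3.11.15. The fit was tested on simulated data.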

Additional observations from a re-analysis of the deposited data

How the results depend on the processing

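The number of the 10 genes called in LV at 4 h was 0, and 1 (Pdk4) with DESeq2, with no filter on low counts, with the replicate number as a block (Pdk4 at 1.43, edgeR adjusted p = 0.0162, range 0.00579 to 0.144 over the alternatives) and with Y-linked genes as a covariate. The pairing behind the block was not established across times in LV. In LV at 8 h it was 2, and 0 with all 18 libraries in 1 fit, with only the 6 libraries compared and at an adjusted p under 0.05. In RV at 4 h it was 1, and 0 at an adjusted p under 0.05. In RV at 8 h it was 1, and 2 with upper-quartile factors, 0 with only the 6 libraries compared and 0 at an adjusted p under 0.05. With single libraries left out, the count ran from 0 to 1 in LV at 4 h, 0 to 3 in LV at 8 h, 0 to 1 in RV at 4 h and 0 to 6 in RV at 8 h. Without heart 3 at 8 h and with the heart as a block, chosen after seeing the data, 2 hearts were left at 8 h, each with less Pdk4 in LV, unlike the heart left out. In that fit 1 gene (Pdk4) was called between LV and RV at 8 h, beside 10.3% of all genes, and 1 in the difference of the changes to 8 h, beside 7.53%. Without the block, on the same libraries, Pdk4 was called in neither (−0.91, edgeR adjusted p = 0.4705, and −0.72, edgeR adjusted p = 0.973). Upper-quartile factors moved the median log2 change of all genes by −0.14 in RV at 4 h and −0.11 at 8 h. With them, the RV changes at 4 h turned to −0.066 for Ppargc1a, −0.067 for Acadm, −0.089 for Acadl and −0.10 for Hadha. Acadl in LV at 4 h turned to 0.0044 with only the 6 libraries compared, 0.00068 with the block and 0.00074 with the covariate. With single libraries left out, small changes turned direction: in LV at 4 h the log2 change ran from −0.49 to 0.057 for Ppara, −0.086 to 0.085 for Acadm, −0.058 to 0.076 for Acadl, −0.12 to 0.036 for Hadha and −0.50 to 0.36 for Ucp3, in LV at 8 h from −0.36 to 0.069 for Ppargc1a and −0.70 to 0.16 for Ucp3, and in RV at 4 h from −0.033 to 0.20 for Ppargc1a, −0.041 to 0.22 for Acadm, −0.0089 to 0.14 for Acadl and −0.048 to 0.11 for Hadha. The cause was not tested. Of the other values of single genes under an alternative, with only libraries of the groups compared left out, 582 kept direction and side of the threshold, 11 passed it and 23 no longer did.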
